A study of Mus musculus with 6 samples.

Results

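The subject is the group of microRNAs (miRNAs) encoded in the imprinted Dlk1-Dio3 region of mouse chromosome 12. A list of 51 mature miRNAs from 42 hairpins was fixed by name, and all 51 were present among the 1836 miRNAs and 2334 small RNAs of the count tables. Small RNAs had been sequenced from complexes that hold the sclera, the choroid and the retinal pigment epithelium (RPE) of male mice of 7 to 8 weeks. The CNV group had laser-induced choroidal neovascularization, in which vessels grow from the choroid through laser breaks beneath the RPE. Each eye of that group received 25 burns of 50 µm (0.1 s at 100 mW and 532 nm) and was taken 7 days later, while control mice of the same age had no laser. Both groups had 3 libraries, every library was a pool of 4 eyes, and no strain, genotype or allele is given for either group. The tissue was the whole complex around the lesions, so a level is an average over lesioned and unlesioned tissue, and fewer cells of a type cannot be told apart from less RNA per cell. Whether the pools came from separate mice is not stated, and a p-value here reflects only how these pools spread, which may be partly technical.

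In the Dlk1-Dio3 region the alleles from mother and father are used differently. The paternal chromosome expresses the protein genes Dlk1, Rtl1 and Dio3, and the maternal chromosome expresses long noncoding RNAs (Meg3, Rian and Mirg) from which the miRNA hairpins are cut. The miRNAs are best known from brain, embryonic tissue, placenta and skeletal muscle. Those that lie antisense to Rtl1 match its mRNA fully and cut it. Some members have been studied as brakes on vessel growth after limb ischemia in mice.

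By RefSeq for build GRCm38.p6 all 42 hairpins lie on the plus strand of chromosome 12 (chr12:109571990-109743795), a span of 171.8 kb. They fall into 3 groups along the strand. The first runs from miR-673 to miR-136 and holds 9 hairpins and 12 members. By GENCODE M21, 5 of its hairpins (miR-431, miR-433, miR-127, miR-434 and miR-136) lie antisense within an exon of Rtl1. The second group, miR-341 and miR-370, lies in introns of Rian, 16.1 kb further on. After a gap of 90.7 kb the third group, miR-379 to miR-410, packs 31 hairpins and 37 members into 34.7 kb, and its last 11 hairpins, from miR-382 on, lie within the annotated Mirg gene.

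A mature sequence was found in RefSeq for 48 of the 51 members, and no 2 of the 48 shared a seed, the bases 2 to 8 that pair with target mRNAs (capitals). The most abundant members of the third group, the most abundant antisense to Rtl1, and the 6 members with the smallest p-values in the comparison below are shown first, to give the range of seeds in the cluster.
mmu-miR-411-5p: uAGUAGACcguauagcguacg
mmu-miR-379-5p: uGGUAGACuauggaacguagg
mmu-miR-127-3p: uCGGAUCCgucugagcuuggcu
mmu-miR-494-3p: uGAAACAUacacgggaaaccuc
mmu-miR-329-3p: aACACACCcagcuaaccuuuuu
mmu-miR-299a-3p: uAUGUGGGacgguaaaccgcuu
mmu-miR-337-5p: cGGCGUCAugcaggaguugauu
mmu-miR-541-5p: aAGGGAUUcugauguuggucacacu
mmu-miR-369-5p: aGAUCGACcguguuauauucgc

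Some members are close copies of each other, shown next because their reads could be exchanged in counting. Of 22 bases, mmu-miR-300-3p and mmu-miR-381-3p differ at 3, mmu-miR-543-3p and mmu-miR-495-3p at 4, and mmu-miR-411-3p differs from mmu-miR-379-3p, an arm outside the 51, at 2. Of 21 bases, mmu-miR-376b-3p and mmu-miR-376a-3p differ at 3. The hairpin opposite miR-299a, annotated on the minus strand as miR-299b, gives mature sequences that are contained in those of miR-299a, the 3p arm from base 1 and the 5p arm from base 2.
mmu-miR-300-3p: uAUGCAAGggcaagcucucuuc
mmu-miR-381-3p: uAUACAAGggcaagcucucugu
mmu-miR-543-3p: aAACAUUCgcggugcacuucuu
mmu-miR-495-3p: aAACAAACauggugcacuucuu
mmu-miR-376b-3p: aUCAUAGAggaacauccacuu
mmu-miR-376a-3p: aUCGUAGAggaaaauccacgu
mmu-miR-411-3p: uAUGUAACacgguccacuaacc
mmu-miR-379-3p: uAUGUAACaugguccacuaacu
mmu-miR-299a-5p: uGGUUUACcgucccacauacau
mmu-miR-299b-3p: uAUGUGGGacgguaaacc
mmu-miR-299b-5p: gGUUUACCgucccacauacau

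For miR-299a and miR-299b the counts show how the copies were treated. For the other close copies the counts cannot show whether reads were exchanged. In control replicates 1 to 3 and CNV replicates 1 to 3, mmu-miR-299b-3p had 576, 1456, 496, 762, 696 and 691 counts and mmu-miR-299a-3p had 588, 1486, 504, 776, 712 and 706. The difference was at most 2.25% of the miR-299a count in any library, and at most 1.18% for the 5p arms, so nearly all of these reads stand under both names, and miR-299b was not used as separate evidence. No other member with over 300 counts in total had another row within 5% of it in every library. The 3 unmatched members, mmu-miR-376c-3p, mmu-miR-485-5p and mmu-miR-487b-3p, are without a sequence here, but their counts were tested like those of the others.

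The whole cluster was a minor part of the small RNA pool. Levels are given in CPM, the usual read count relative to library size, here with totals scaled by edgeR's TMM factors. The most abundant members were mmu-miR-411-5p at 1330 CPM and mmu-miR-379-5p at 1216 CPM over the 6 libraries, ranks 68 and 71 among all miRNAs. With mmu-miR-127-3p (871 CPM), mmu-miR-381-3p (791 CPM) and both arms of miR-434 (624 CPM each) they made 61.5% of the summed level of the 51, and the 10 most abundant made 78.2%. At the other end 11 members were under 10 CPM. All 51 had at least 1 count in every library, and the rarest was mmu-miR-654-3p (5, 1 and 14 counts in control, 4, 2 and 3 in CNV). By position, 33.4% of the summed level came from the miR-673 to miR-136 group, 2.20% from miR-341 and miR-370 and 64.4% from miR-379 to miR-410. Neighbouring hairpins differed widely: mmu-miR-376a-3p was at 2.05 CPM and mmu-miR-300-3p, from the adjacent hairpin, at 397 CPM. Small RNA libraries capture some sequences better than others, so levels of different miRNAs are compared only roughly.

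**Figure D1:**
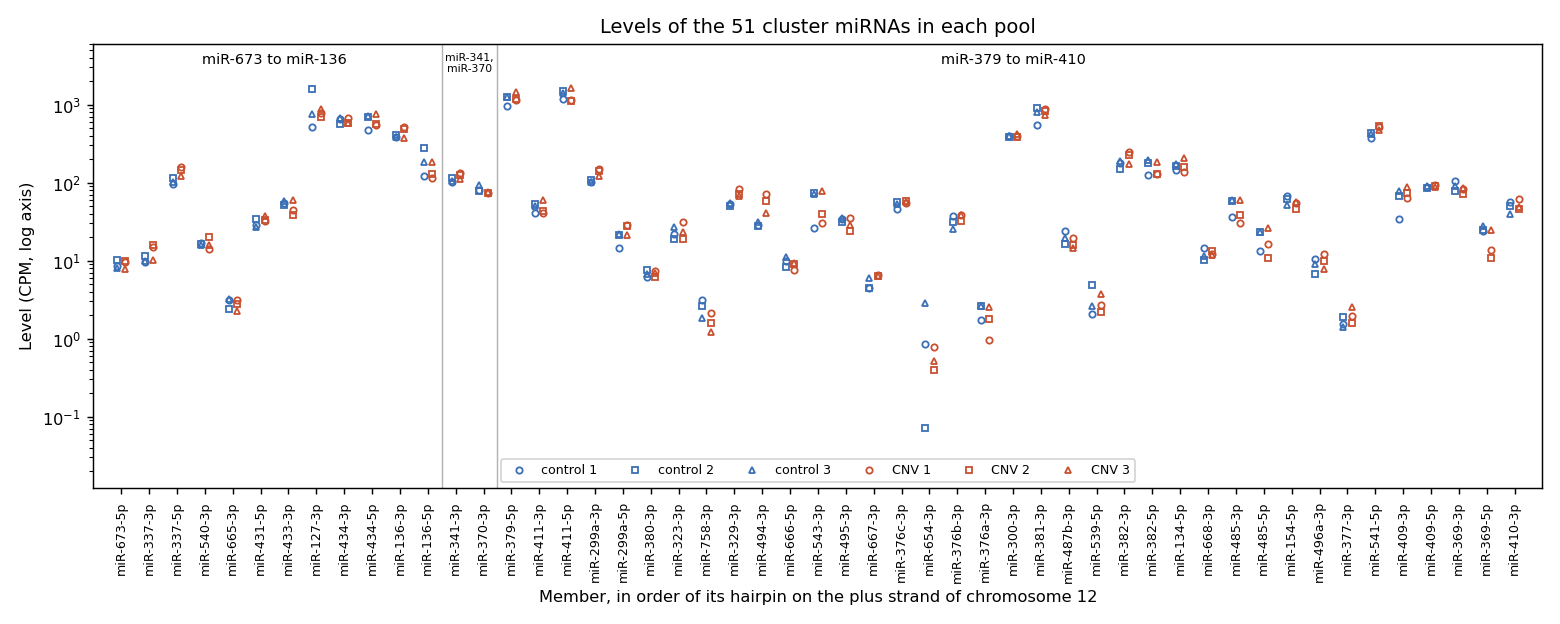
Level of each of the 51 members in each pool, in CPM on a log axis, with members in order along chromosome 12; blue is control, red is CNV, and circle, square and triangle are replicates 1, 2 and 3. Mean levels ran from 0.914 CPM for miR-654-3p to 1330 CPM for miR-411-5p, and the pools of a member mostly lay close together beside the differences between members.

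The share of all miRNA counts taken by the 51 was 0.877, 1.13 and 0.920% in control replicates 1 to 3, and it was 0.848, 0.894 and 1.06% in CNV replicates 1 to 3. The groups overlapped, with means of 0.975 ± 0.135% in control and 0.933 ± 0.110% in CNV (SD, n = 3 each). Each share rested on 42547 to 138005 member counts, and its exact 95% binomial interval ran, for example, from 0.868 to 0.885% in control replicate 1, which covers counting error only. Without the 3 most abundant members the shares were 0.588 ± 0.0409% and 0.583 ± 0.0344%. The highest pools, control replicate 2 and CNV replicate 3, were also the highest without these 3, at 0.635 and 0.620%.

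The comparison of CNV with control asked whether the laser lesions were accompanied by a change of the cluster. No member passed. Of the 51, 49 had enough reads to be tested, and the quasi-likelihood test of edgeR, adjusted by the Benjamini-Hochberg method over all 997 tested small RNAs, called 0 of them, against 3 of all tested small RNAs (0.301%) and 3 of 541 miRNAs (0.555%), none from this cluster. At an unadjusted p under 0.05 there were 4 members higher in CNV and 0 lower. Over all miRNAs tested the shares at that p were 8.5% higher and 9.06% lower. The count of higher members was thus near the background, and the count of lower members was below it. At that p DESeq2 and limma-voom each had 1 member lower. DESeq2 called 1 member, mmu-miR-494-3p, and limma-voom 0. The 2 members not tested were mmu-miR-654-3p and mmu-miR-377-3p, the latter with 9, 26 and 7 counts in control and 10, 8 and 15 in CNV.

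The fold changes were small and centred near 0. Of the 49, 26 were above 0 and 23 below, against 51.2% above 0 over all tested miRNAs, and the median log2 fold change was 0.03, against 0.01 over all tested miRNAs. When only total counts set the scale the medians moved together, to -0.11 for the members and -0.14 for all tested miRNAs, and 15 members were above 0, so the direction of the cluster as a whole depends on the scaling. For 41 members the 95% interval of the log2 fold change lay within -1 and 1, that is, a doubling or a halving lay outside it. Among the 40 members with a mean of at least 10 CPM, 38 (95%) had a log2 fold change within 0.5 of 0, against 263 of 334 (78.7%) of the other miRNAs at that level. The SD of the log2 fold changes was 0.29 for those 40 and 0.43 for the 334.

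**Figure D2:**
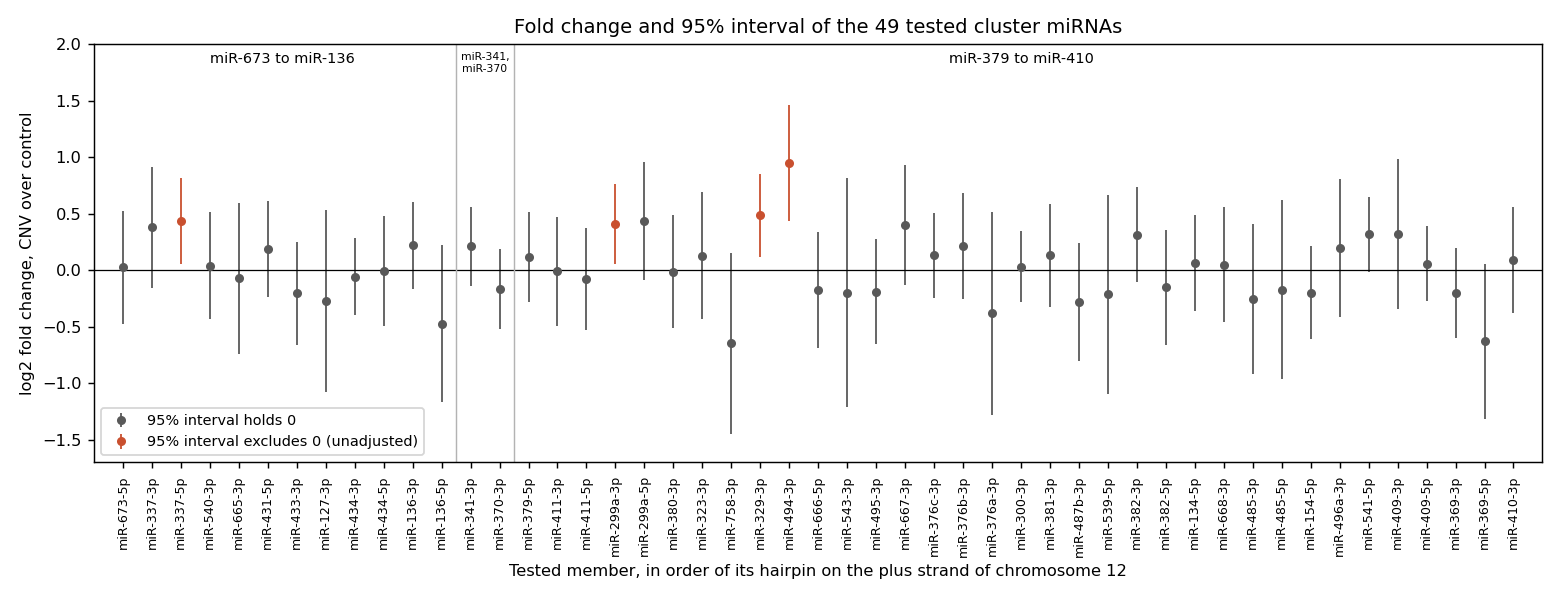
Log2 fold change of CNV over control with its 95% interval for the 49 tested members, in order along chromosome 12. The 4 members in red, whose unadjusted interval excludes 0, are miR-337-5p, miR-299a-3p, miR-329-3p and miR-494-3p, and none passed after adjustment.

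The member with the smallest p was mmu-miR-494-3p, whose hairpin lies at chr12:109715318-109715402 outside any annotated host gene. Its level was 28.8, 28.0 and 31.4 CPM in control replicates 1 to 3 and 70.6, 58.5 and 41.1 CPM in CNV replicates 1 to 3, an order kept for all values by library below. Every CNV value was above every control value, and CNV replicate 3 was the closest to control. The fold was 1.93, from 29.4 ± 1.82 to 56.7 ± 14.8 CPM (log2 0.95, SE 0.23, 95% interval 0.44 to 1.46), at an adjusted p of 0.127 in edgeR's test. DESeq2 gave it an adjusted p of 0.0161. With edgeR it passed without a low-count filter (0.0155) or without CNV replicate 3 (0.0440), and over all the alternatives its adjusted p ran from 0.0155 to 0.507. Its 5p arm had 0 or 1 count in every library.

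The next hairpin upstream, miR-329 (chr12:109713481-109713577), gave the second smallest p through mmu-miR-329-3p. This arm was at 53.5, 50.5 and 54.9 CPM in control and 81.9, 72.3 and 68.4 CPM in CNV, again without overlap. The fold was 1.40 (log2 0.49, SE 0.16, adjusted p 0.202 in edgeR's test). The other arm of the same hairpin did not follow it: mmu-miR-329-5p was at 119, 115 and 116 CPM in control and 110, 120 and 113 CPM in CNV (log2 -0.03, SE 0.14). The 5p arm was thus 2.22, 2.27 and 2.10 times as abundant as the 3p arm in control but 1.34, 1.66 and 1.65 times in CNV.

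The others with an unadjusted p under 0.05 were mmu-miR-299a-3p and mmu-miR-337-5p. The level of mmu-miR-299a-3p (hairpin at chr12:109710638-109710700) was 101, 107 and 103 CPM in control and 151, 142 and 121 CPM in CNV, a fold of 1.33 (log2 0.41, SE 0.16, adjusted p 0.232). Its 5p arm was at 14.7, 21.1 and 21.6 CPM and 28.4, 28.1 and 21.3 CPM, with CNV replicate 3 inside the control range (log2 0.43, SE 0.23, adjusted p 0.385). In the first group of hairpins, mmu-miR-337-5p (hairpin at chr12:109585789-109585885) was at 97.1, 115 and 103 CPM in control and 161, 143 and 122 CPM in CNV, a fold of 1.35 (log2 0.43, SE 0.17, adjusted p 0.238). For both miR-299a-3p and miR-337-5p the CNV pools lay above the control pools, with CNV replicate 3 nearest. The rare mmu-miR-337-3p, at 9.66, 11.5 and 10.01 CPM and 14.8, 15.7 and 10.3 CPM, overlapped (log2 0.38, SE 0.24).

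The groups also did not overlap for mmu-miR-541-5p and mmu-miR-667-3p, both higher in CNV, and for mmu-miR-370-3p, lower in CNV. The rare mmu-miR-667-3p was at 4.49, 4.46 and 5.92 CPM in control and 6.62, 6.37 and 6.36 CPM in CNV (log2 0.40, SE 0.23, adjusted p 0.436). The Rian member mmu-miR-370-3p was at 80.2, 78.4 and 92.9 CPM in control and 73.4, 73.4 and 76.5 CPM in CNV (log2 -0.17, SE 0.16, adjusted p 0.642). These 2 were named after their values were seen. The level of mmu-miR-541-5p was 369, 429 and 421 CPM in control and 511, 533 and 475 CPM in CNV (log2 0.32, SE 0.15, adjusted p 0.308). When only total counts set the scale its groups overlapped. In all, 6 of the 49 members were higher without overlap and 1 lower, against 12.8% and 11.3% of all tested miRNAs. When only total counts set the scale there were 5 in each direction, while over all 541 tested miRNAs there were 44 higher and 90 lower.

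Of the lower members, mmu-miR-369-5p, near the downstream end of the cluster, had the lowest log2 fold change at 10 CPM or more. It was at 23.8, 24.5 and 28.2 CPM in control and 13.8, 10.7 and 24.6 CPM in CNV (log2 -0.63, SE 0.30, adjusted p 0.322). CNV replicate 3 lay among the control pools, and without that library the log2 fold change was -1.14 with an adjusted p of 0.0478 in edgeR's test. The 3p arm of the hairpin, mmu-miR-369-3p, was at 105, 79.1 and 90.3 CPM and 83.1, 70.9 and 85.1 CPM (log2 -0.20, SE 0.17). The rare mmu-miR-758-3p had 18, 37 and 9 counts in control and 11, 8 and 7 in CNV (log2 -0.65, SE 0.35), and mmu-miR-487b-3p was at 24.3, 16.5 and 19.4 CPM and 19.3, 15.7 and 14.4 CPM (log2 -0.28, SE 0.23). Neither passed, and the groups overlapped for both.

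**Figure D3:**
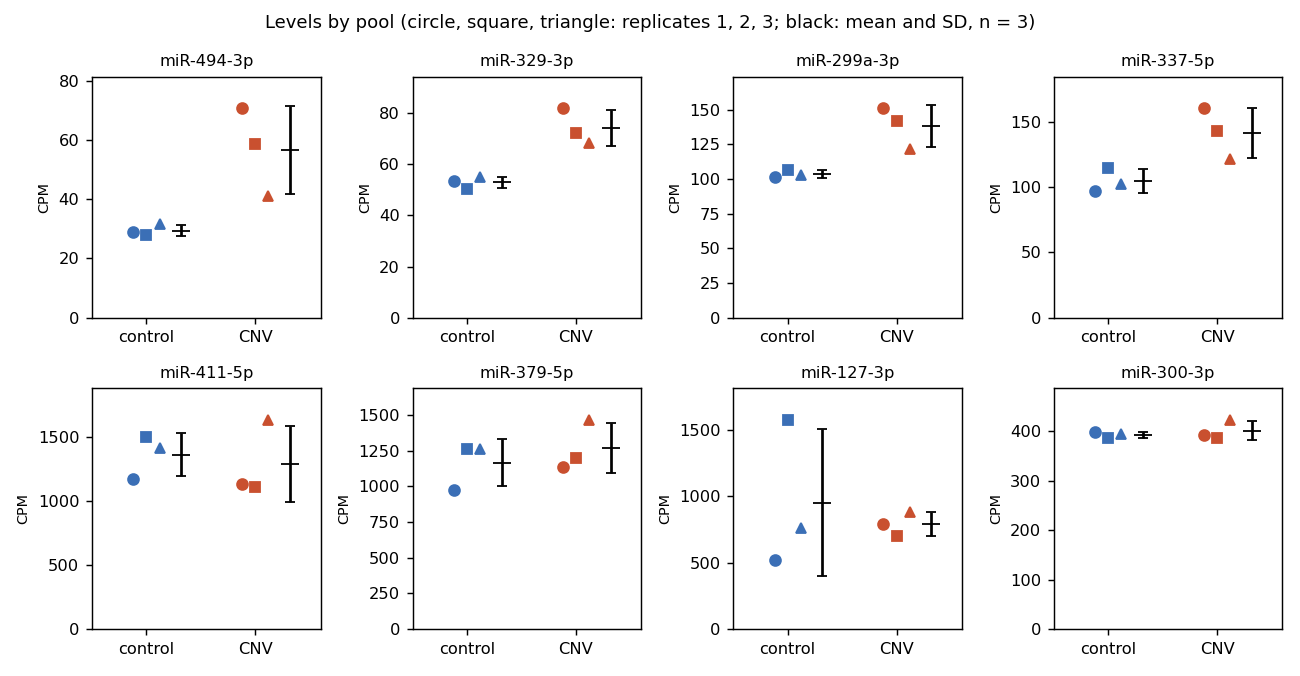
Level in CPM of 8 members in each pool, on axes that start at 0, with the mean and SD of each group (n = 3) in black. In the top row all CNV pools lie above the control pools, and in the bottom row of abundant members the groups overlap, with miR-127-3p at 522 to 1576 CPM within control alone.

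Of the 10 most abundant members, the groups overlapped for all but miR-541-5p. The level of mmu-miR-411-5p was 1174, 1502 and 1421 CPM in control and 1134, 1110 and 1638 CPM in CNV (log2 -0.08, SE 0.20, 95% interval -0.52 to 0.37). That of mmu-miR-379-5p was 974, 1263 and 1260 CPM and 1137, 1196 and 1465 CPM (log2 0.12, SE 0.17, 95% interval -0.28 to 0.52). The steadiest was mmu-miR-300-3p, at 398, 387 and 394 CPM and 393, 387 and 423 CPM (log2 0.03, SE 0.14). Its near copy mmu-miR-381-3p was at 555, 894 and 815 CPM and 893, 842 and 745 CPM (log2 0.13, SE 0.20), with control replicate 1 the lowest.

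From the strand opposite Rtl1, mmu-miR-127-3p was the least steady of the abundant members. It was at 522, 1576 and 758 CPM in control and 790, 698 and 879 CPM in CNV, a 3.02-fold range (log2 -0.27, SE 0.35, adjusted p 0.741). The sign rested on 1 library, since the log2 fold change was 0.21 without control replicate 2 and -0.54 without control replicate 1. The partner arm mmu-miR-127-5p, cut from the same hairpin, showed no such range, at 199, 203 and 204 CPM in control and 239, 234 and 221 CPM in CNV (log2 0.20, SE 0.14, adjusted p 0.545), where the groups did not overlap. Of the other hairpins opposite Rtl1, mmu-miR-434-3p was at 663, 570 and 676 CPM and 665, 584 and 584 CPM (log2 -0.06, SE 0.15), and mmu-miR-434-5p at 473, 694 and 707 CPM and 543, 560 and 764 CPM (log2 -0.01, SE 0.21). For mmu-miR-431-5p and mmu-miR-433-3p the log2 fold changes were 0.19 and -0.20, and neither passed.

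Change by position gave no ordered series. The median log2 fold change was 0.01 for the 12 members from miR-673 to miR-136, with 6 above 0 and 6 below. For miR-341-3p and miR-370-3p, the pair within Rian, the values were 0.21 and -0.17. Among the 35 tested members from miR-379 to miR-410 the median was 0.05, with 19 above 0, and it was 0.12 for miR-379 to miR-376a and 0.04 for miR-300 to miR-410. The signs of these last medians were not stable. They were -0.08 and -0.14 without CNV replicate 3, -0.023 and -0.082 without control replicate 2, and -0.020 and -0.11 when only total counts set the scale, and the second was -0.022 without control replicate 3. Single members within a group ran from -0.65 to 0.95. The adjacent hairpins miR-758, miR-329 and miR-494 gave 3p arms at -0.65, 0.49 and 0.95. Across the 46 tested members with a mature sequence, Spearman's rho of the log2 fold change with position was -0.07 and with GC content -0.02, a description only, since the members share libraries and transcripts.

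As a group the members moved little between pools. Their pool medians spread more than those of all tested miRNAs. A median over 49 members is expected to vary more than a median over 541 miRNAs, so this spread is not read as a trait of the cluster. The median over the 49 of the log2 level relative to the control mean was -0.06, 0.07 and 0.06 in control replicates 1 to 3 and 0.07, -0.05 and 0.08 in CNV replicates 1 to 3. Over all tested miRNAs the corresponding medians were -0.01, 0.03 and 0.04, and 0.05, -0.02 and -0.01. Members above their own median over the 6 libraries numbered 16, 27 and 26 in control and 27, 20 and 31 in CNV. Of all tested miRNAs, 46.2, 50.5 and 53.6% were above their own median in control and 56.7, 44.0 and 48.98% in CNV. Control replicate 1 was the lowest library for 16 of the 49 members (26.2% of all tested miRNAs had their lowest value there), and CNV replicates 1 and 3 were each the highest for 13 (25.5% and 11.8% of all tested miRNAs).

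**Figure D4:**
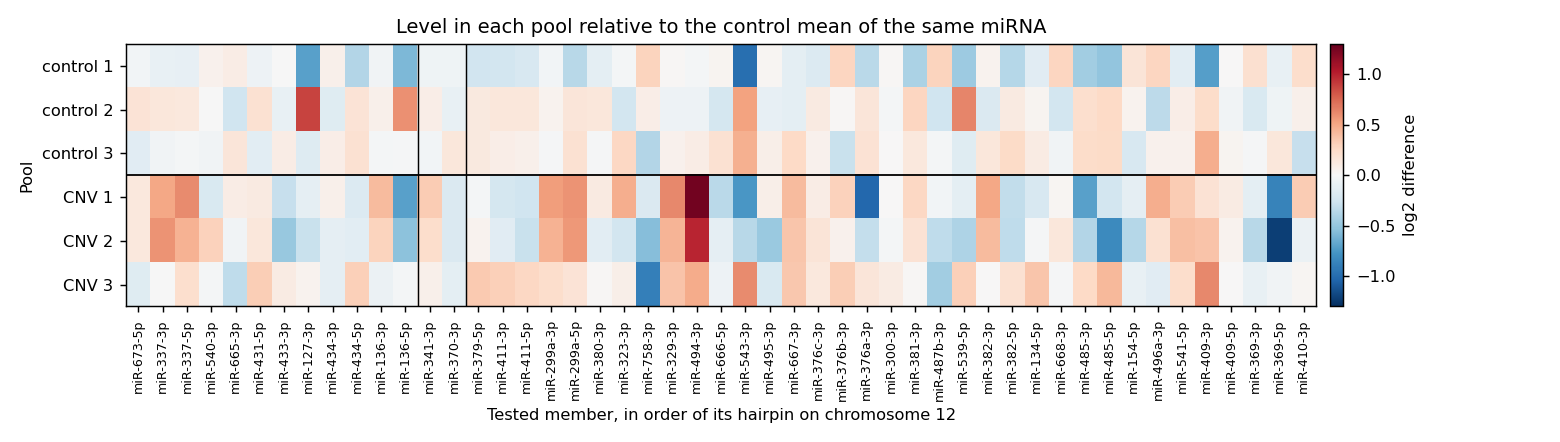
Log2 level of each tested member in each pool relative to its mean over the control pools, with members in order along chromosome 12; red is higher and blue lower. The low values of control 1 gather in some members, such as miR-543-3p and miR-409-3p, with neighbours in between near 0, and miR-494-3p in CNV 1 is the deepest red at 1.26.

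Some members varied widely within a group, miR-543-3p in both and miR-409-3p in control. The level of mmu-miR-543-3p was 26.0, 74.6 and 71.5 CPM in control and 30.5, 40.2 and 79.3 CPM in CNV, and mmu-miR-409-3p was at 34.3, 66.8 and 78.4 CPM and 64.2, 72.8 and 87.3 CPM. Both were lowest in control replicate 1 and highest in CNV replicate 3, and miR-543-3p was named after its values were seen. In the same hairpin mmu-miR-409-5p stayed between 85.1 and 94.6 CPM. Both arms of miR-485 had this pattern in control: mmu-miR-485-3p was at 36.7, 58.5 and 59.2 CPM and 30.7, 38.6 and 60.4 CPM, and mmu-miR-485-5p at 13.5, 23.2 and 23.1 CPM and 16.3, 10.7 and 26.0 CPM.

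Marker miRNAs of other cell types moved between the pools as well. The 5 skeletal muscle markers summed to 34883 CPM in the lowest control pool and 92236 CPM in the highest, with 58216 to 92086 CPM in CNV, and their mean log2 level was -1.03 in control replicate 1 relative to the control mean. Their log2 fold change was above 0 for 4 and -0.80 for miR-499-5p. The 7 retinal neuron markers, all lower in CNV, summed to 15211 to 21947 CPM in control and 8368 to 13552 CPM in CNV. The 5 photoreceptor markers, also all lower, summed to 49398 to 75871 CPM in control and 24765 to 49532 CPM in CNV. The 4 RPE markers were all lower in CNV (6841 to 7042 and 4573 to 6546 CPM), and the 4 fibroblast markers all higher (43587 to 47108 and 54342 to 60968 CPM). The 2 endothelial markers summed to 35247 to 45069 CPM in control and 35449 to 42881 CPM in CNV, and both had a log2 fold change below 0. The 5 leukocyte markers summed to 545 to 662 and 700 to 1015 CPM, with 4 above 0 and miR-150-5p lower, at 213 ± 26.4 CPM in control and 152 ± 16.9 CPM in CNV (SD, n = 3 each). The lists for smooth muscle and pericytes (4), red blood cells (3), cartilage (4) and surface epithelium (5) each had 3 or 4 members with a log2 fold change above 0, and their summed ranges overlapped between the groups. No marker of these 11 lists was at 0, although retinal neurons, photoreceptors and skeletal muscle are not part of the tissues named for the complex. The part of these cell types in the values of the cluster was not tested.

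The arms of a hairpin come from the same precursor, so their ratio within a library needs no scaling. Of 9 hairpins with both arms among the members, the 5p arm was the larger in every pool for miR-337 (9.11 to 11.8 times the 3p arm), miR-411 (25.7 to 29.1 times) and miR-409 (1.01 to 2.57 times). The 3p arm was the larger in every pool for miR-136, miR-299a, miR-485 and miR-369. For miR-434 and miR-382 the larger arm differed between pools. The ratio of miR-411 was the steadiest, with a 1.13-fold range, and that of miR-136 the least steady, with a 3.12-fold range.

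In miR-136 the ratio of mmu-miR-136-5p to mmu-miR-136-3p was 0.323, 0.677 and 0.472 in control and 0.217, 0.264 and 0.488 in CNV. Both arms entered the range of this ratio. The 5p arm spanned 2.47-fold, at 123, 280 and 183 CPM and 114, 127 and 182 CPM (log2 -0.47, SE 0.31, adjusted p 0.486 in edgeR's test). The 3p arm spanned 1.40-fold, at 382, 414 and 388 CPM and 524, 482 and 374 CPM (log2 0.22, SE 0.17). In CNV replicates 1 and 2 the 5p arm was near its level in control replicate 1, and the 3p arm was higher than there. The ratio for miR-382 was 0.707, 1.17 and 1.01 in control and 0.531, 0.562 and 1.08 in CNV. There mmu-miR-382-5p was at 126, 176 and 193 CPM and 130, 129 and 187 CPM, and mmu-miR-382-3p at 178, 151 and 191 CPM and 245, 229 and 173 CPM. In both hairpins CNV replicates 1 and 2 had the lowest ratios and CNV replicate 3 a ratio within the control range. The ratio of miR-369 was likewise low in CNV replicates 1 and 2, at 0.166 and 0.152, with 0.289 in CNV replicate 3, against 0.226, 0.310 and 0.312 in control.

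The partner arms from a fixed list of 64 other mature miRNAs of the region added 13 more hairpins with both arms tested. Over these 22 hairpins the groups did not overlap for 3 ratios, those of miR-329, miR-154 and miR-411, each with relatively less 5p arm in CNV. Of 134 hairpins elsewhere, 17.2% had ratios without overlap, and 3 of 22 was near that share. For miR-154 the 5p arm was 5.36, 5.66 and 5.08 times the 3p arm in control and 2.87, 3.15 and 4.67 times in CNV. The ratios are given as a description, and no test was run on them. The median range of the ratio over the 6 pools was 1.88-fold in the cluster and 1.84-fold in the other hairpins.

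**Figure D5:**
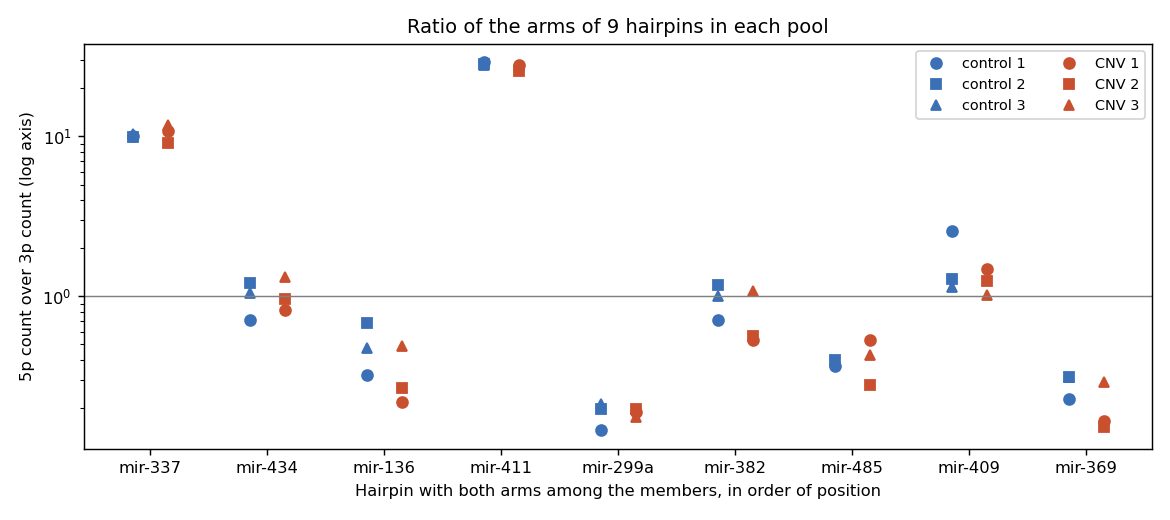
Ratio of 5p to 3p counts on a log axis for the 9 hairpins with both arms among the members, one point per pool. The points of miR-411 and miR-337 nearly coincide, and those of miR-136, miR-382 and miR-409 are spread by 3.12-fold, 2.20-fold and 2.54-fold.

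The other arms of the region were mostly rare. Of the 64 on the list, 59 were found by name and 22 were tested, the most abundant being mmu-miR-127-5p at 217 CPM. None was called, and 12 were above 0 and 10 below. The 12 include the 3p and 5p arms of miR-299b (log2 0.41 and 0.44), whose reads are nearly all those of miR-299a. At an unadjusted p under 0.05 in edgeR's test there was 1 higher, mmu-miR-299b-3p, and 1 lower. The lower was mmu-miR-1247-5p, from a hairpin beyond miR-410 towards Dio3, at 17, 29 and 13 counts in control and 9, 2 and 5 in CNV (log2 -1.297, SE 0.46, adjusted p 0.218 in edgeR's test). On the same chromosome outside the miRNA cluster, mmu-miR-342-3p was at 289, 216 and 267 CPM and 364, 331 and 259 CPM (log2 0.31, SE 0.19), and mmu-miR-345-5p at 52.6, 48.5 and 43.3 CPM and 58.6, 50.95 and 35.2 CPM. The log2 fold changes of the other arms were -0.33 for mmu-miR-342-5p and -0.13 for mmu-miR-345-3p, and none of the 4 was called.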

How the data were processed

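Small RNA libraries (inserts of about 14 to 40 nt, sequenced on a NextSeq 500 per the labels' protocols) came from 3 control and 3 CNV pools. The authors' deposited tables give a read count for each mature miRNA and each small RNA cut from a tRNA. Per the submitters' processing notes the tools include Bowtie. Its version, the build it used and its handling of reads that match several names were not given in the sources. Only the count column was read. Library totals were 5057142 to 12839386 counts, of which 4757479 to 12225531 were miRNA counts, with control replicate 2 the deepest.

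Counts were analysed in R 4.3.3. filterByExpr of edgeR 4.0.16 (minimum count 10, minimum total 15) left 997 small RNAs, 541 of them miRNAs. These were scaled with TMM factors and tested, CNV against control with no covariate, by the quasi-likelihood test of edgeR, adjusted by the Benjamini-Hochberg method over all 997 at 0.05. SE is the log2 fold change divided by the root of the F statistic, and log2 levels used a prior count of 2. The whole fit was also run on simulated counts, which did not measure its power for changes as small as most of those here. DESeq2 1.42.0 and limma-voom (limma 3.58.1), other scalings and filters, a fit on miRNAs alone, a replicate block and leaving out each library were alternatives. Figures were drawn with matplotlib 3.10.9.

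Members named with values in every library were the 10 most abundant, the 8 with the smallest p, the 3 highest and 3 lowest fold changes at 10 CPM or more, and both arms of hairpins with both among the members. Others so shown were chosen after their values were seen. The members and lists were chosen with earlier results of these data known. Sequences and hairpin positions are from RefSeq (GRCm38.p6), and host genes from GENCODE M21 on GRCm38. Marker lists held 2 to 7 miRNAs for each of 11 cell types.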

Additional observations from a re-analysis of the deposited data

How the results depend on the processing

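The main test called 3 small RNAs and 0 members. The count of small RNAs was 38 with DESeq2, 88 without a low-count filter, 0 at a mean of at least 10 CPM, 6 with miRNAs alone and 36 with the replicate block, and 0 to 24 when 1 library was left out, with 24 without CNV replicate 3 and 0 without any 1 of control replicates 2 and 3 or CNV replicates 1 and 2. Of the members, DESeq2 and the fit without a filter called 1 each, miR-494-3p, and 0 to 2 were called when 1 library was left out, the 2 being miR-494-3p (higher) and miR-369-5p (lower) without CNV replicate 3. The block used the replicate numbers of the titles and called 0 members, with miR-494-3p at an adjusted p of 0.0513. Same-numbered pools deviated together with r of 0.29, 0.03 and 0.17. Each CNV pool was closest to the control pool of its own number, while control replicate 2 was closest to CNV replicate 3 (0.15). Whether the numbers pair the pools was not settled, and the main fit took the pools as unpaired. The median log2 fold change of the members (0.03) was -0.11 when only total counts set the scale, -0.054 without a filter, and -0.077 to 0.028 when 1 library was left out. The range of the pool medians was 0.14 log2 units, and 0.30 when only total counts set the scale. The difference in share of miRNA counts, -0.042 percentage points, ran from -0.10 to 0.035 when 1 library was left out, and was -0.069 of all small RNA counts and -0.0050 without the 3 most abundant members. No alternative called any of the other arms of the region. For the 27 named members under 15 alternatives, 400 of 404 values stayed on the same side of the threshold, and 26 values of 9 members changed sign without a call. The 400 include miR-758-3p under DESeq2, which gave it no adjusted p, so it was counted as not called. Members under 10 CPM rest on few counts. Changes of any member smaller than its interval were not detectable with 3 pools in each group.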
